A study of Mus musculus with 8 samples.

Results

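The chemokine ligands and chemokine receptors of the mouse were examined in aged skeletal muscle with and without *Grsf1*. Members were chosen by name: a probe was kept if it was no control spot and carried the accession of a RefSeq transcript whose gene symbol starts with Ccl, Cxcl, Cx3cl, Xcl, Ccr, Cxcr, Cx3cr or Xcr followed by a number. This gave 54 genes, 35 ligands with 44 probes and 19 receptors with 24 probes, out of 22911 genes that were named through RefSeq on the array. The RefSeq table holds 63 symbols of this form, and the other 9 were not analysed here because no probe carried an accession listed for them. *Cxcl11* is among these, so that no value is given for it. The RefSeq table lists it as a transcribed pseudogene.

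Chemokines are small secreted proteins that guide cells of the immune system by binding receptors coupled to G proteins. Most act in overlapping sets, in which a receptor binds several ligands and a ligand binds several receptors. CXCL9, CXCL10 and CXCL11 share the receptor CXCR3, which is carried by activated T cells and natural killer (NK) cells, and they are known as products of interferon signalling; CXCL10 also responds to type I interferon and NF-κB. In skeletal muscle, CCL2 and its relatives draw monocytes through CCR2 after injury, CX3CL1 and CX3CR1 serve resident and recruited macrophages, and CXCL12 and CXCR4 act on muscle precursor cells.

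RNA came from a quadriceps muscle of 3 Grsf1cKO and 3 WT male mice, all 17 months old, each of them a separate animal, and was hybridized to 8 Agilent 1-color arrays. The sample labels name this muscle the vastus intermedius, while the study's text names the rectus femoris. Grsf1cKO mice descend from Grsf1tm1a mice of the strain C57BL/6N-Atm1Brd, whose LacZ and Neo cassettes were removed with FLPo, leaving the Grsf1-LoxP allele in which exons IV and V are flanked by LoxP sites; a cross with Myf5Cre mice then deleted *Grsf1* in cells with a history of *Myf5* expression, which include muscle fibers and satellite cells but not most immune cells. The strain of the WT controls, and whether they carried Myf5Cre or a floxed allele, was not given in the sources used here.

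The *Grsf1* probe, on a log2 scale of quantile-normalized signal that is used throughout, read 14.30 in WT 1, 14.25 in WT 2 and 14.27 in WT 3, and 12.15 in Grsf1cKO 1, 12.02 in Grsf1cKO 2 and 12.08 in Grsf1cKO 3. All Grsf1cKO mice lay below all WT mice, as the labels say. The log2 fold change of Grsf1cKO over WT was -2.19 (SE 0.081; limma, adjusted p = 0.0033), and the probe was called. With the replicate number as a block the adjusted p was 0.2497, and it was not. All 15 muscle fiber markers, such as *Acta1*, *Ckm* and *Ttn*, were well above background in all 6 mice.

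By their barcodes the arrays lay on 2 slides. Slide 1 held only WT arrays, that of WT 2 and the array of WT 1 that is not a repeat. Slide 2 held the repeat array of WT 1, the array of WT 3 and all Grsf1cKO arrays. Genotype was thus partly confounded with slide. The arrays were not all alike in other ways either. WT 1 and Grsf1cKO 1 each had a further array that is labelled a repeat. The repeat array of Grsf1cKO 1 stood apart from the rest. Of its spots, 88.9% were well above background, against 73.1% on the other array of that mouse. The values of the 2 arrays of a mouse were averaged. Grsf1cKO 3 stood apart in another way, in the members themselves. It held the highest signal of the 6 mice for 21 of the 35 genes that could be tested (60%), against 16.3% of 38859 probes over the whole array. Where a named gene or a list followed Grsf1cKO 3, values are therefore given without it or mouse by mouse.

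A gene was represented by its brightest probe and was tested if that probe stood well above background in 3 mice or more. Of the 54 genes, 35 passed, 23 ligands and 12 receptors. Of these, 32 were well above background in all 6 mice; *Ccl28*, *Ccr6* and *Ccr10* passed with fewer. A call took a false discovery rate under 0.2, an unadjusted p under 0.01 and a change of more than 1.5-fold, and limma called 0 of the 35 genes, beside 3 of all 38886 probes tested (0.00771%). At an unadjusted p under 0.05 there was 1 gene, *Cxcl10*, and the same threshold was met by 4.25% of all probes. The genotypes did not overlap, with all Grsf1cKO mice higher, for 2 genes, *Cxcl10* and *Cxcr6* (5.71%), against 3.08% of all probes. No gene had all Grsf1cKO mice lower, against 6.27% of all probes. By these counts the list did not stand out from the array. By size alone, 4 genes were more than 1.5-fold higher (*Cxcl10*, *Ccl5*, *Ccr6* and *Cx3cr1*), against 1.9% of all probes. *Ccl5* and *Cx3cr1* were not among them without Grsf1cKO 3. *Ccr6* was well above background in only 1 WT mouse, so that its fold change has no exact size. Log2 fold changes were above 0 for 27 of the 35 genes, against 42.5% of all probes, and for 14 of the 35 without Grsf1cKO 3, against 43.3%, so that this excess rested on that mouse.

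*Cxcl10*, the ligand of CXCR3 that recruits activated T cells, read 8.16 in WT 1, 8.32 in WT 2, 8.22 in WT 3, 10.05 in Grsf1cKO 1, 8.94 in Grsf1cKO 2 and 11.08 in Grsf1cKO 3. The WT mice were close together, every Grsf1cKO mouse was above them, and the Grsf1cKO mice were spread widely. Mean signals were 8.23 ± 0.084 (SD, n = 3) and 10.02 ± 1.07 (SD, n = 3). The log2 fold change was 1.79 (confidence interval 0.54 to 3.04), which is 3.46-fold. The unadjusted limma p was 0.013 and the adjusted p was 0.996, so that *Cxcl10* did not pass the threshold; 412 probes had a smaller unadjusted p. An exact 2-sided permutation of the 6 mice gave p = 0.1, the smallest that 3 mice against 3 allow. Without Grsf1cKO 3 the log2 fold change was 1.26 (adjusted p = 0.788), and on the slide that held both genotypes it was 1.88. Read by array, Grsf1cKO 1 had 10.05 on each of its arrays, and WT 1 had 8.24 and 8.08.

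*Cxcl9*, a ligand of the same receptor that depends on interferon gamma in most cells, read 7.99 in WT 1, 7.79 in WT 2, 7.27 in WT 3, 7.36 in Grsf1cKO 1, 7.22 in Grsf1cKO 2 and 8.17 in Grsf1cKO 3. The genotypes overlapped, and only Grsf1cKO 3 was above the WT mice. The log2 fold change was -0.10 (confidence interval -0.85 to 0.65; adjusted p = 0.998); it was 0.01 when arrays were scaled to their 75th percentile, so that it had no settled direction. *Cxcr3*, the receptor of these ligands, read 7.06 in WT 1, 6.93 in WT 2, 6.79 in WT 3, 7.22 in Grsf1cKO 1, 6.62 in Grsf1cKO 2 and 7.84 in Grsf1cKO 3. Grsf1cKO 2 was the lowest mouse and Grsf1cKO 3 the highest. Its log2 fold change was 0.30 (confidence interval -0.44 to 1.05; adjusted p = 0.996), and without Grsf1cKO 3 it was -0.0046.

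Whether *Cxcl10* differed more between genotypes than the other genes of this set was tested on the difference of the log2 signals in each mouse. The log2 fold change of *Cxcl10* exceeded that of *Cxcl9* by 1.89, and the genotypes did not overlap in this difference. It exceeded that of *Cxcr3* by 1.49, again with no overlap. Each exact 2-sided permutation gave p = 0.1, the smallest possible, and 0.1 after Benjamini-Hochberg adjustment over the 2 comparisons. Relative to the mean of WT, the difference between *Cxcl10* and *Cxcl9* was 2.14 in Grsf1cKO 1, 1.17 in Grsf1cKO 2 and 2.36 in Grsf1cKO 3, so that it did not depend on the last mouse alone.

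**Figure D1:**
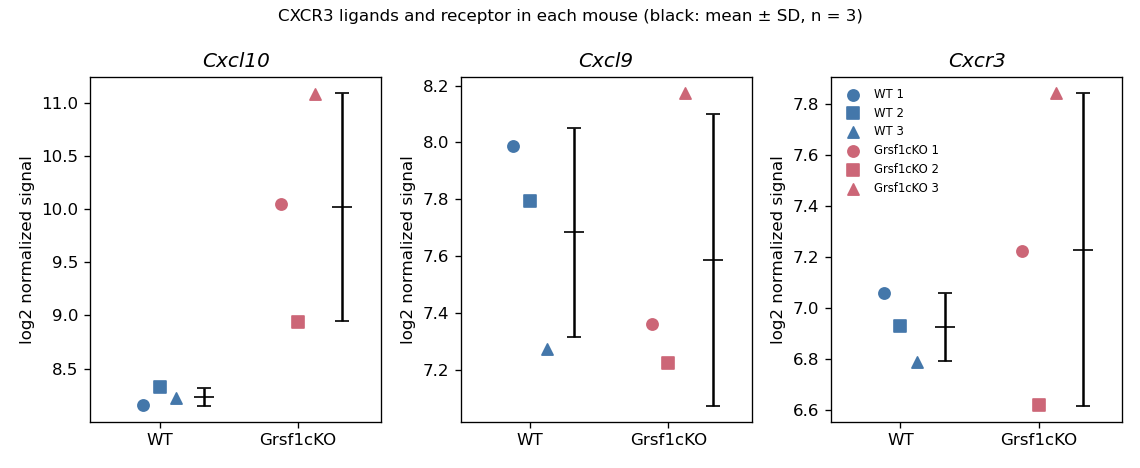
Log2 normalized signal (vertical axes, which differ between panels) of *Cxcl10*, *Cxcl9* and *Cxcr3* in each WT (blue) and Grsf1cKO (red) mouse, with the mean and SD of each genotype in black. The Grsf1cKO mice are all above the WT mice for *Cxcl10*, from 8.94 to 11.08, and overlap with them for the other two.

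*Cxcl9* and *Cxcl10* lie close together on chromosome 5, and since only *Cxcl10* separated the genotypes, the promoters of both are shown, from 250 bases before to 50 bases after the gene start. They are RefSeq sequences of GRCm38.p6, chr5:92328030-92328329 for *Cxcl9* and chr5:92348840-92349139 for *Cxcl10*, both on the minus strand and written 5′ to 3′. Capitals mark exact matches, on either strand, to a core of the interferon-stimulated response element (GAAA, any 2 bases, GAAA) and the NF-κB consensus (GGGRNWYYCC). They also mark the interferon gamma activated site (TTCNNNGAA) and the AP-1 site (TGANTCA). N is any base, R is A or G, W is A or T and Y is C or T. No matches overlapped. Near matches were not marked, so a window without a match to a pattern can still hold sequences like it.
Cxcl9: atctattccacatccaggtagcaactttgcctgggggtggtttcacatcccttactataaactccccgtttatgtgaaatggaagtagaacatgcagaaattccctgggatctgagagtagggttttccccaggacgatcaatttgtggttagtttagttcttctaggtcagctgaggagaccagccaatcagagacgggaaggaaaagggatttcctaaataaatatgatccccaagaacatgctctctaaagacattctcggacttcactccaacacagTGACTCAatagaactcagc
Cxcl10: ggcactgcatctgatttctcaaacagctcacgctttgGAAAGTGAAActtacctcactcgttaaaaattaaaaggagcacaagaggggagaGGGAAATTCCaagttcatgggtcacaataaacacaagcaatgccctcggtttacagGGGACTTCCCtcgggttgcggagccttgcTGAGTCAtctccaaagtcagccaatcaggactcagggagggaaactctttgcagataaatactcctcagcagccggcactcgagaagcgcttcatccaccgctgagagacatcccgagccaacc
From left to right, the capitals in *Cxcl10* are the interferon-stimulated core, a pair of NF-κB matches and an AP-1 match, while the window of *Cxcl9* held an AP-1 match past the gene start. Of all 32851 promoters of this length, 3.44% held the interferon-stimulated core, 4.51% the NF-κB consensus, 8.30% the activated site and 7.81% the AP-1 site. Among the 40 members with a promoter in the table, 3 held the interferon-stimulated core (*Ccl19*, *Cxcl10* and *Cxcl14*) and 9 the NF-κB consensus. Matches of this kind describe the letters of the window only.

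The other ligands gave smaller differences. Over the 23 ligands tested, log2 fold changes ran from -0.10 for *Cxcl9* to 1.79 for *Cxcl10* with a median of 0.22, beside a median of -0.03 over all probes. They were above 0 for 19 ligands, and for 12 without Grsf1cKO 3, when the median was 0.02. With 75th percentile scaling, 53.7% of all probes and 20 of the ligands were above 0.

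*Ccl5*, which attracts T cells and monocytes, was the ligand other than *Cxcl10* with a fold change over 1.5. It read 8.25 in WT 1, 8.75 in WT 2, 7.71 in WT 3, 8.70 in Grsf1cKO 1, 8.20 in Grsf1cKO 2 and 9.90 in Grsf1cKO 3. Grsf1cKO 3 was the highest, and the others lay within the range of WT. This gave a log2 fold change of 0.70 (confidence interval -0.49 to 1.89; adjusted p = 0.996), and 0.21 without Grsf1cKO 3.

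The ligands *Ccl8* and *Ccl12*, which are related to *Ccl2*, had the same shape, and are described although their fold changes were under 1.5, a choice made after their values were seen. *Ccl8* read 10.13 in WT 1, 11.99 in WT 2, 10.40 in WT 3, 10.72 in Grsf1cKO 1, 10.82 in Grsf1cKO 2 and 12.73 in Grsf1cKO 3. *Ccl12* read 7.04 in WT 1, 7.80 in WT 2, 7.45 in WT 3, 7.14 in Grsf1cKO 1, 7.38 in Grsf1cKO 2 and 9.12 in Grsf1cKO 3. For both, Grsf1cKO 3 was above every other mouse, and Grsf1cKO 1 and Grsf1cKO 2 lay among the WT mice. Their log2 fold changes were 0.58 and 0.45 over the 6 mice and -0.07 and -0.17 without Grsf1cKO 3. *Ccl2* and *Ccl7*, ligands of CCR2, had their highest signal in Grsf1cKO 3 as well, at 10.19 and 8.94, and log2 fold changes of 0.25 and 0.29 that were -0.14 and -0.29 without it.

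Some further ligands are named here after their values were seen. *Cxcl12*, which retains CXCR4-bearing cells, had a log2 fold change of -0.09, or 0.02 without Grsf1cKO 3. *Ccl21a*, which guides cells with CCR7 into lymphatic vessels, had 0.06. *Ccl11* and *Ccl24*, which attract eosinophils through CCR3, had 0.09 and -0.09, or 0.05 and 0.04 without Grsf1cKO 3. *Cx3cl1*, the membrane-bound ligand of CX3CR1, had 0.34 (confidence interval -0.06 to 0.74) and 0.21 without Grsf1cKO 3, and its genotypes overlapped through Grsf1cKO 2 alone, at 10.05 against 10.08 in WT 2. *Cxcl1*, a ligand of the neutrophil receptor CXCR2, had 0.34 (confidence interval -0.01 to 0.69), 0.23 without Grsf1cKO 3 and 0.54 with 75th percentile scaling, with Grsf1cKO 1 at 6.01 below WT 1 at 6.04. Further probes differed in sign from the brightest for *Ccl25* (0.22 against -0.36 for its dimmest), *Ccl27a* (-0.07 against 0.08) and *Ccl28* (0.12 against -0.03).

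**Figure D2:**
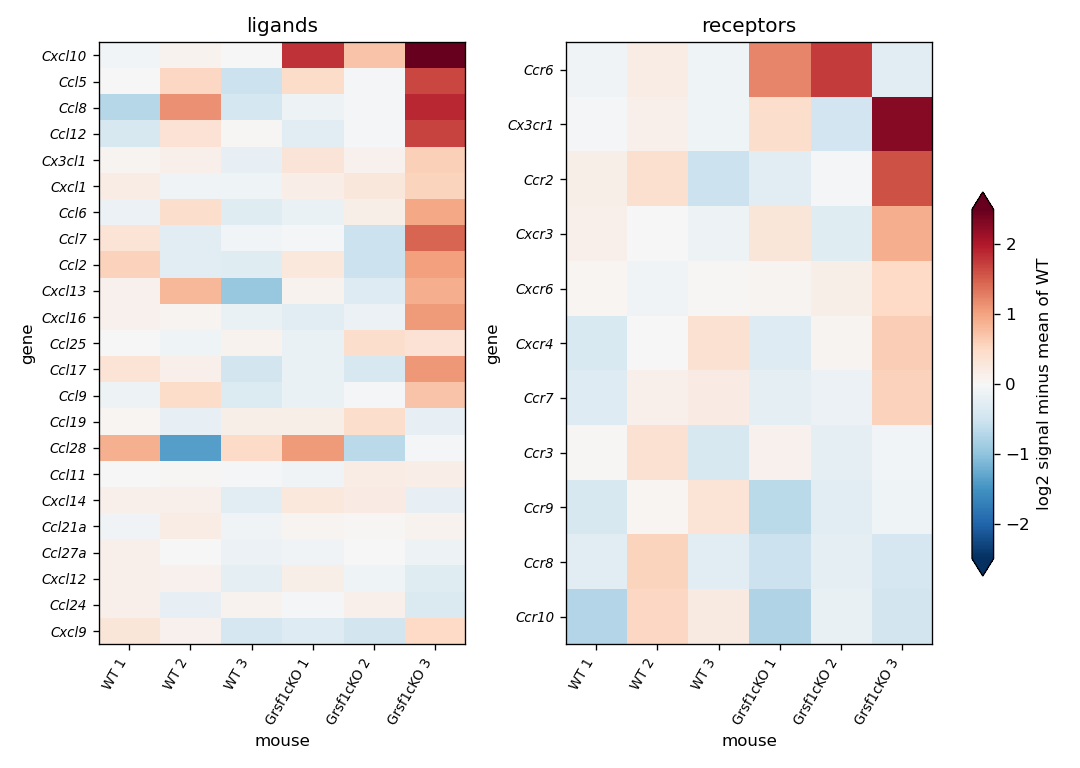
Log2 normalized signal minus the mean of the WT mice (color) for the 23 ligands and 11 of the 12 receptors tested (vertical axis, by log2 fold change) in each of the 6 mice (horizontal axis), with the color scale ending at 2.5 either way. Grsf1cKO 3 holds the highest value of 14 of the 23 ligands, and *Cxcl10* and *Ccr6* are high in Grsf1cKO 1 and Grsf1cKO 2 as well or instead.

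Among the 12 receptors tested, log2 fold changes ran from -0.46 for *Ccr10* to 0.89 for *Ccr6*, with a median of 0.18. They were above 0 for 8 receptors and for 2 without Grsf1cKO 3, when the median was -0.15. The number of receptors with an unadjusted p under 0.05 was 0, against 4.25% of all probes. Without Grsf1cKO 3 it was 2, against 5.48%.

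*Cxcr6*, the receptor of CXCL16 on T cells and NK cells, read 8.22 in WT 1, 8.08 in WT 2, 8.21 in WT 3, 8.24 in Grsf1cKO 1, 8.31 in Grsf1cKO 2 and 8.67 in Grsf1cKO 3. The genotypes did not overlap, but Grsf1cKO 1 exceeded WT 1 by a margin smaller than the spread among the WT mice. Grsf1cKO exceeded WT by a log2 fold change of 0.24 (confidence interval -0.09 to 0.57; adjusted p = 0.996). The log2 fold change was 0.11 without Grsf1cKO 3, 0.15 with normexp background correction and 0.16 on the deposited scores. A dimmer *Cxcr6* probe gave 0.10, with genotypes that overlapped.

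*Cx3cr1*, the receptor of CX3CL1 on monocytes and macrophages, read 7.53 in WT 1, 7.68 in WT 2, 7.45 in WT 3, 7.998 in Grsf1cKO 1, 7.07 in Grsf1cKO 2 and 9.83 in Grsf1cKO 3. Grsf1cKO 2 was the lowest mouse and Grsf1cKO 3 the highest, by 2.28 over the mean of WT. Over the 6 mice the log2 fold change was 0.75 (confidence interval -0.89 to 2.39; adjusted p = 0.996) and -0.02 without Grsf1cKO 3. Its dimmer probe gave 0.37, and -0.73 without Grsf1cKO 3. *Ccr2*, the receptor of CCL2 on monocytes, was examined beside it after its values were seen. *Ccr2* read 8.19 in WT 1, 8.44 in WT 2, 7.51 in WT 3, 7.77 in Grsf1cKO 1, 7.99 in Grsf1cKO 2 and 9.63 in Grsf1cKO 3. Grsf1cKO 3 was the highest, and the other Grsf1cKO mice lay within the range of WT. Its log2 fold change was 0.42, and -0.17 without Grsf1cKO 3.

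*Ccr6*, the receptor of CCL20 on B cells and some T cells, went the other way. It read 4.33 in WT 1, 4.61 in WT 2, 4.31 in WT 3, 5.63 in Grsf1cKO 1, 6.16 in Grsf1cKO 2 and 4.13 in Grsf1cKO 3. Grsf1cKO 1 and Grsf1cKO 2 were above all WT mice, and Grsf1cKO 3 was the lowest of the 6 mice. The probe was dim, well above background in 1 WT and 2 Grsf1cKO mice, and the arrays of Grsf1cKO 1 read 5.08 and 6.17. Its log2 fold change was 0.89 (confidence interval -0.35 to 2.13; adjusted p = 0.996), and 1.48 without Grsf1cKO 3 (adjusted p = 0.718). Its size was not settled, at 0.46 without Grsf1cKO 2 and 0.30 with normexp background correction. *Ccr6* had 0.67 without the repeat arrays, and 1.11 with these in place of the other arrays of the same mice. Its ligand *Ccl20* was not well above background in any mouse.

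**Figure D3:**
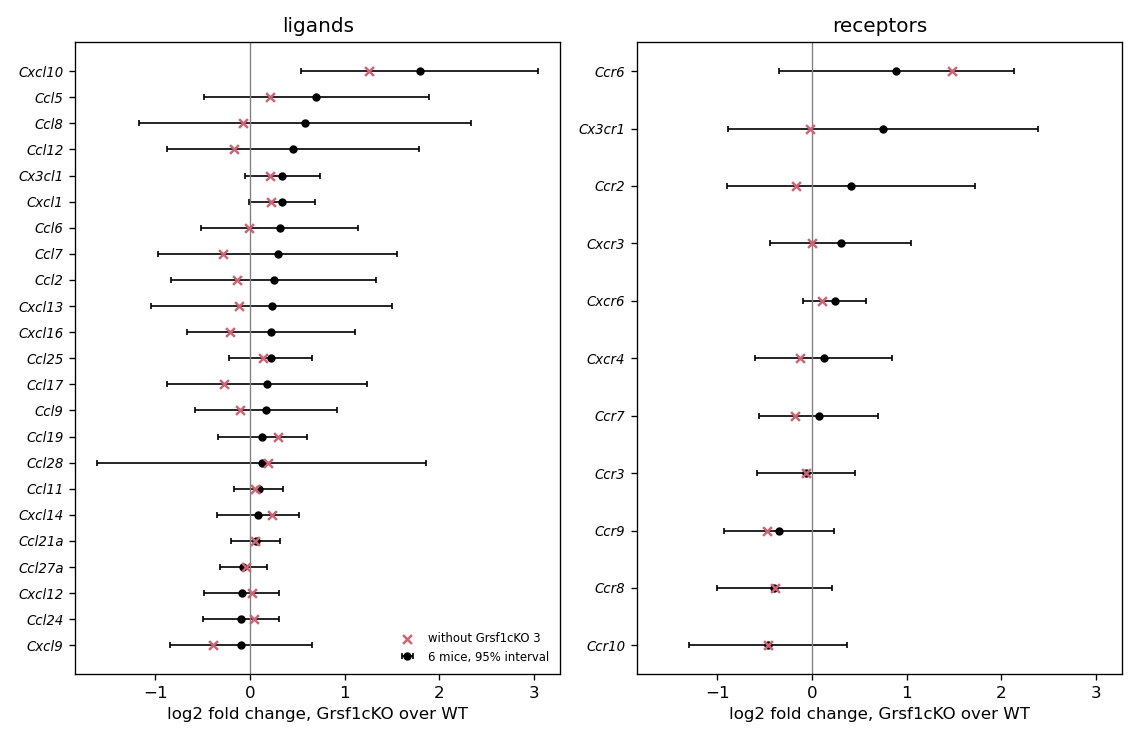
Log2 fold change of Grsf1cKO over WT (horizontal axis) for the 23 ligands and 11 of the 12 receptors tested, with the limma estimate over 6 mice and its confidence interval in black and the estimate without Grsf1cKO 3 as a red cross. The interval of *Cxcl10*, from 0.54 to 3.04, is the only one that does not include 0.

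The 19 members that did not pass the detection filter were 12 ligands and 7 receptors. Of these, 14 were not well above background in any mouse: the ligands *Ccl1*, *Ccl20*, *Ccl22*, *Ccl26*, *Cxcl2*, *Cxcl3*, *Cxcl5*, *Cxcl15* and *Cxcl17*, and the receptors *Ccr1*, *Ccr1l1*, *Ccr4*, *Cxcr1* and *Xcr1*. *Ccl3* and *Ccl4*, which attract macrophages and other inflammatory cells, were well above background in Grsf1cKO 3 and in no other mouse by their brightest probes. A dimmer *Ccl4* probe was well above background in 2 Grsf1cKO mice. *Xcl1*, which attracts dendritic cells through XCR1, was well above background in 1 Grsf1cKO mouse, *Cxcr5*, the receptor of CXCL13 on B cells, in 2 Grsf1cKO mice, and the neutrophil receptor *Cxcr2* in 1 mouse of each genotype.

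Genes that act upstream of chemokines were examined in gene lists. Of the 40 tested regulators of interferon and NF-κB signalling, 0 were called, 1 had an unadjusted p under 0.05 with a higher signal in Grsf1cKO mice and 1 with a lower signal, and the median log2 fold change was 0.04, or 0.02 without Grsf1cKO 3, which was the highest mouse for 19 of them. All Grsf1cKO mice were above all WT mice for 2 regulators (*Nfkb2* and *Irf7*), against 3.08% of all probes. They were below all WT mice for 2 (*Tnf* and *Irf2*), against 6.27%. The 2 with an unadjusted p under 0.05 stand beside 4.25%, so that by these counts the list was near the array as a whole. Log2 fold changes were above 0 for 26 of the 40 regulators, against 42.5% of all probes, and for 24 without Grsf1cKO 3, against 43.3%. That mouse was the highest for 47.5% of the list, against 16.3% of all probes. At an unadjusted p under 0.05, the higher regulator was *Nfkb2*, a subunit of NF-κB, at 11.41 in WT 1, 11.56 in WT 2, 11.39 in WT 3, 12.29 in Grsf1cKO 1, 11.75 in Grsf1cKO 2 and 12.55 in Grsf1cKO 3. All Grsf1cKO mice were above all WT mice, and in the order of *Cxcl10*. On average the log2 fold change was 0.75, and 0.57 without Grsf1cKO 3. The lower regulator at that threshold was *Tnf*, encoding the cytokine TNF, with a log2 fold change of -0.55 and all Grsf1cKO mice below all WT mice. On the slide that held both genotypes, *Tnf* had -0.30. *Irf7*, an amplifier of type I interferon, had 0.57, with all Grsf1cKO mice above all WT mice, and *Nfkbie*, an inhibitor of NF-κB, had 0.56 with overlap; without Grsf1cKO 3 they had 0.21 and 0.40. *Ifnb1* was not well above background in any mouse, *Ifng* was in 2 Grsf1cKO mice, and *Il1b* was in 1 mouse of each genotype.

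Of the 38 tested interferon-stimulated genes, 0 were called, 4 had an unadjusted p under 0.05, all higher in Grsf1cKO mice (4.25% of all probes met this in either direction), and 35 had a log2 fold change above 0 (42.5% of all probes), or 20 without Grsf1cKO 3 (43.3%). The median was 0.19, and 0.0062 without that mouse. Grsf1cKO 3 was the highest mouse for 33 of them, against 16.3% of all probes. The mean of the list relative to WT was -0.025 in WT 1, 0.011 in WT 2 and 0.014 in WT 3. It was 0.023 in Grsf1cKO 1, 0.074 in Grsf1cKO 2 and 0.57 in Grsf1cKO 3. In this mean all Grsf1cKO mice were above all WT mice, Grsf1cKO 1 by a margin smaller than the spread among the WT mice. The genes with the largest log2 fold changes were *Xaf1* (0.93), *Ifi44* (0.67), *Oas1a* (0.61) and *Oasl1* (0.58), which had 0.70, 0.50, 0.31 and 0.38 without Grsf1cKO 3. *Xaf1* rested in part on WT 1, at 7.35 against 8.68 in WT 2 and 9.56 in WT 3, and *Ifi44* on the repeat array of Grsf1cKO 1, at 7.85 against 6.19 on its other array, with a log2 fold change of 0.41 without the repeat arrays. All Grsf1cKO mice were above all WT mice for 6 genes of the list (15.8%, against 3.08% of all probes), which were *Isg15*, *Oas1a*, *Oas2*, *Oasl1*, *Oasl2* and *Ifi35*. Summed over the list, signal was 156200 in WT 1, 148200 in WT 2, 138800 in WT 3, 148600 in Grsf1cKO 1, 153000 in Grsf1cKO 2 and 181500 in Grsf1cKO 3, with *B2m* the brightest probe. In this sum Grsf1cKO 3 was the highest, and, unlike in the mean, the other Grsf1cKO mice lay among the WT mice.

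Downstream of the receptors, 0 of 32 signalling genes were called. At an unadjusted p under 0.05, 0 had a higher signal and 2 a lower signal, *Elmo1* (-0.44) and *Grk5* (-0.26). In either direction 4.25% of all probes met this threshold, so that this count was near the array as a whole. The median was 0.03, or -0.0086 without Grsf1cKO 3. That mouse was the highest for 18 of the 32 genes (56.25%), against 16.3% of all probes. *Elmo1* rested on the repeat array of Grsf1cKO 1, at 5.75 against 6.996 on its other array; it had -0.23 without the repeat arrays and -0.26 with 75th percentile scaling. The largest log2 fold change was that of *Pik3cg* (0.67, or 0.51 without Grsf1cKO 3, with WT 3 at 6.02 against 6.9998 in WT 1 and 7.08 in WT 2), the kinase subunit that responds to receptors coupled to G proteins. Of the 16 atypical receptors and related genes, 0 had an unadjusted p under 0.05 and the median was 0.05. *Cd74*, a receptor of MIF, had 0.44, and 0.02 without Grsf1cKO 3.

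Markers of cells that carry or make chemokines were examined beside these genes, since in whole muscle a higher number of cells of a type and more RNA per cell cannot be told apart. Of the 14 macrophage markers, all were tested, 0 had an unadjusted p under 0.05, and 12 were highest in Grsf1cKO 3. The mean of the list relative to WT was -0.10 in WT 1, 0.22 in WT 2, -0.13 in WT 3, -0.08 in Grsf1cKO 1, -0.03 in Grsf1cKO 2 and 0.94 in Grsf1cKO 3. Grsf1cKO 3 thus stood apart in macrophage markers as it did in *Ccl8*, *Ccr2* and *Cx3cr1*. In the mean of the macrophage list, Grsf1cKO 1 and Grsf1cKO 2 lay among the WT mice. The signal summed over the list was 70360 in WT 1, 85350 in WT 2, 70290 in WT 3, 69950 in Grsf1cKO 1, 71560 in Grsf1cKO 2 and 107200 in Grsf1cKO 3, with *Itgam* the brightest probe. The largest log2 fold changes were those of *Mpeg1* (0.80), *Cd68* (0.66), *Aif1* (0.47) and *Lyz2* (0.44), which had 0.02, 0.19, 0.04 and -0.08 without Grsf1cKO 3. The median of 0.25 became -0.05 without Grsf1cKO 3. The part of macrophages in the chemokine values of Grsf1cKO 3 was not tested.

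Dendritic cell markers followed the same mouse, with a mean of 1.02 in Grsf1cKO 3 against -0.28 in Grsf1cKO 1 and 0.01 in Grsf1cKO 2, all 8 markers tested, and *Itgax* with the largest log2 fold change (0.84, or -0.14 without Grsf1cKO 3). Their summed signal, in which the *Siglech* probe was the brightest, did not follow, at 90710 in WT 1, 93670 in WT 2, 100700 in WT 3, 87170 in Grsf1cKO 1, 93820 in Grsf1cKO 2 and 91380 in Grsf1cKO 3. Grsf1cKO 3 lay among the other mice in this sum. NK cell markers had a mean of 0.58 in Grsf1cKO 3, with 7 of 10 tested and *Klrd1* the largest (0.58, or 0.17 without Grsf1cKO 3); *Ncr1*, *Gzmb* and *Eomes* did not pass the detection filter. Their summed signal was 912.7 in WT 1, 918.6 in WT 2, 978.8 in WT 3, 984.6 in Grsf1cKO 1, 912.2 in Grsf1cKO 2 and 1135 in Grsf1cKO 3, with *Tbx21* the brightest probe. Grsf1cKO 3 was the highest, and the part of these cells in its chemokine values was not tested. T cells, which carry CXCR3, were represented by 14 markers, all tested. The mean of the T cell list was -0.12 in WT 1, 0.29 in WT 2, -0.17 in WT 3, -0.06 in Grsf1cKO 1, -0.29 in Grsf1cKO 2 and 0.29 in Grsf1cKO 3. The genotypes overlapped, WT 2 and Grsf1cKO 3 were alike, and *Cd27* (-0.52) was the marker with an unadjusted p under 0.05, at 5.66 on the repeat array of Grsf1cKO 1 against 6.35 on its other array. Of the 14 log2 fold changes 8 were above 0, and the median was 0.13, or -0.02 without Grsf1cKO 3. The largest in either direction were *Cd8a* (-1.29, or -1.90 without Grsf1cKO 3), *Cd3g* (0.64, or 0.66 without Grsf1cKO 3), *Il7r* (0.60, or 0.04) and *Foxp3* (-0.54, or -0.76). The probes of *Cd8a* and *Foxp3* were dim, so that the sizes and ranks of these changes are not exact. *Cd8a* read 2.17 in Grsf1cKO 2, and 2.73 on the repeat array of Grsf1cKO 1 against 4.43 on its other array. *Foxp3* read 3.72 on that repeat array against 4.76 on the other.

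Of the remaining lists, B cell, neutrophil, mast cell, endothelial, lymphatic endothelial, fibroblast, mural cell, adipocyte, Schwann cell, blood cell and muscle fiber markers held 0 genes with an unadjusted p under 0.05. Their medians were -0.17 for B cells, -0.27 for neutrophils, 0.06 for mast cells, -0.06 for endothelium, -0.09 for lymphatic endothelium, 0.12 for fibroblasts, -0.08 for mural cells, -0.14 for adipocytes, 0.05 for Schwann cells, -0.17 for blood cells and 0.01 for muscle fibers. Without Grsf1cKO 3 they were 0.04 for fibroblasts, of whose 8 markers 5 were highest in that mouse, 0.02 for mural cells, -0.04 for adipocytes, -0.04 for blood cells, -0.25 for B cells, -0.32 for neutrophils, 0.195 for mast cells, -0.05 for endothelium, -0.10 for lymphatic endothelium, 0.09 for Schwann cells and -0.0092 for muscle fibers. Satellite cell markers had a median of 0.11 and held 1 such gene, *Vcam1* (0.36, or 0.25 without Grsf1cKO 3), an adhesion molecule also found on activated endothelium; *Myf5* was not well above background in any mouse. *Cd79a* and *Blk* of the B cell list and *Ngp* of the neutrophil list did not pass the filter. Among muscle fiber genes, Grsf1cKO 3 stood apart for the slow troponins: *Tnni1* read 10.35 in WT 1, 11.17 in WT 2, 11.21 in WT 3, 11.19 in Grsf1cKO 1, 10.61 in Grsf1cKO 2 and 14.33 in Grsf1cKO 3. That mouse was the highest for *Tnnt1* too, at 14.38, but not for the slow myosin *Myh7*, at 9.39 against 11.38 in WT 2. The part of fiber type or of the piece of muscle taken in the values of Grsf1cKO 3 was not tested.

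**Figure D4:**
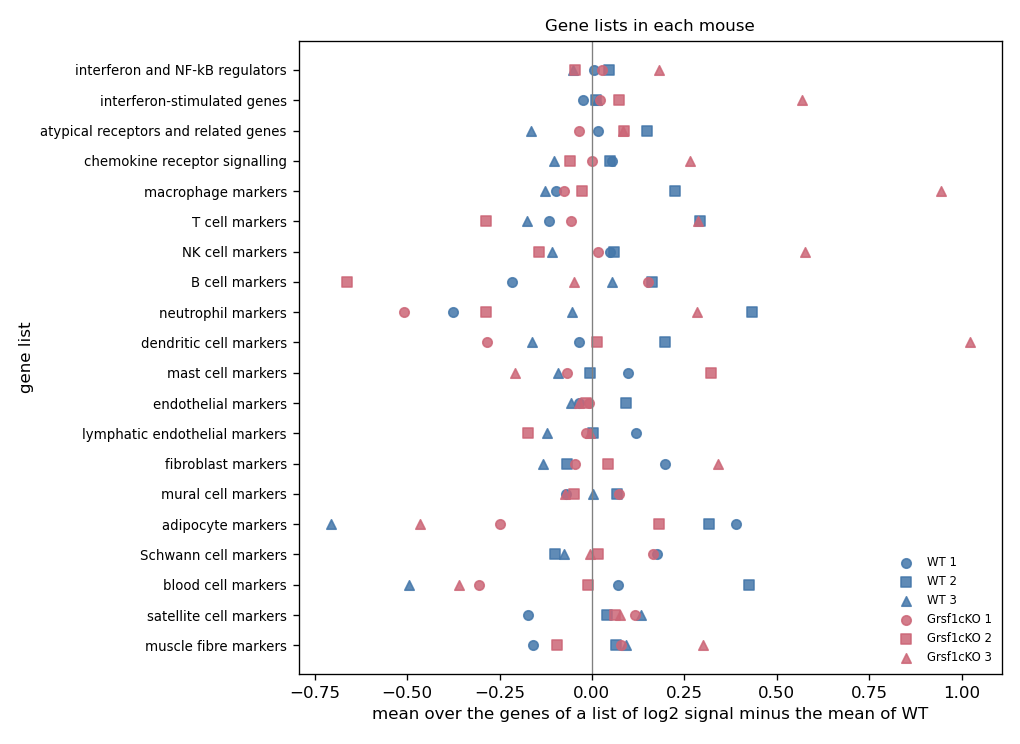
Mean over the genes of each list of the log2 signal minus the mean of WT (horizontal axis) in each WT (blue) and Grsf1cKO (red) mouse. Grsf1cKO 3 lies apart from the other 5 mice for macrophage markers (0.94), dendritic cell markers (1.02), NK cell markers (0.58) and interferon-stimulated genes (0.57).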

How the data were processed

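For each array the authors deposited a file from Agilent Feature Extraction 12.0.3.1, which gives the intensity of every spot on a linear scale after background correction, and a table of scores. Each deposited score was a *z*-score that equaled the log2 processed signal minus the array mean, divided by the array SD, within 0.005.

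From the processed signal, control spots were left out, outlier spots were treated as missing, all 8 arrays were brought to shared quantiles, and log2 values were averaged, spots within probes and arrays within animals. A probe needed to be well above background in 3 mice and to have a value in 2 mice per genotype, and was fitted with limma 3.58.1 in R 4.3.3, genotype being the only term, with Benjamini-Hochberg adjustment over all 38886 probes. Confidence intervals are those of limma at its preset level. The code was tested on simulated data.

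Accessions of 32994 of 56605 probes matched a RefSeq table of GRCm38.p6. Named are *Grsf1*, the CXCR3 set, members with genotypes that did not overlap or a fold change over 1.5, and up to 4 genes of each of 20 lists with the largest change. The members and lists were chosen with earlier results of these data known. Alternatives were 75th percentile scaling, normexp (offset 50, on median signals), the deposited scores, other detection filters, the choice of repeat arrays, the slide, an intensity trend, the replicate number as a block, each mouse left out, and the mean over the probes of a gene. The values of 1 receptor are not reported here, although the counts and medians include it.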

Additional observations from a re-analysis of the deposited data

How the results depend on the processing

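*Cxcl10* was higher in Grsf1cKO mice under all 18 alternatives, with log2 fold changes from 1.26 (without Grsf1cKO 3) to 2.33 (without Grsf1cKO 2) and adjusted p from 0.758 to 1, so that it was called under none; 0 members were called under any. *Cxcl9* reversed with 75th percentile scaling (0.0113) and ran from -0.39 to 0.0838 when mice were left out. *Cxcr3* ran from -0.0046 to 0.61. Without Grsf1cKO 3, *Ccl8* (-0.0737), *Ccl12* (-0.17), *Ccr2* (-0.17) and *Cx3cr1* (-0.0175) reversed, the lowest values among the mice left out; the highest were 1.155, 0.82, 0.76 and 1.364 in the same order. The excess of *Cxcl10* over *Cxcl9* and *Cxcr3* kept its direction under the 17 alternatives run for it.

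Members whose genotypes did not overlap numbered 5 of 54 with no detection filter (8.66% of all probes), 1 of 37 with the repeat arrays in place of the others (8.78%), 7 of 34 on slide 2 alone, where 2 WT mice remain (20.4%), 1 of 35 with the mean over probes (9.55%), and 3 to 6 of 35 when a mouse was left out (17.4% to 20.5%). Members at an unadjusted p under 0.05 numbered 2 with 75th percentile scaling (3.31% of all probes), 3 with normexp (3.69%) and 4 with no filter (3.94%). They numbered 2 without the repeat arrays (4.06%), 2 with slide as a term (1.72%), and 1 to 3 when a mouse was left out (4.19% to 5.48%). The cause of these changes was not tested.

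Taking replicate numbers as a block, *Grsf1* kept its log2 fold change of -2.19 but not its call (adjusted p = 0.2497), and 2 members had an unadjusted p under 0.05 (6.2% of all probes). Same-numbered mice correlated at 0.232, 0.097 and 0.104 in their deviations, and every mouse correlated best with its own number. With 3 mice per genotype, such low values cannot decide whether the numbers pair the mice. Dim probes such as *Ccr6* and *Ccr10* lie near background, which limits their values.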

Other observations

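*Grsf1* and *Cxcl10* both lie on chromosome 5, and the genes between them were examined after the values of *Cxcl10* had been seen. In the RefSeq order of GRCm38.p6, 42 genes with a probe lie between them, among them other CXC ligands. Of the 23 that were tested, 0 had an unadjusted p under 0.05, 1 had all Grsf1cKO mice above all WT mice and 0 had all below, near the 4.25%, 3.08% and 6.27% of all probes. Their log2 fold changes ran from -0.49 for *Btc*, a ligand of the EGF receptor, to 0.34 for *Cxcl1*, with a median of -0.05. The next gene with a probe on this side of *Cxcl10*, *Art3*, had -0.05, and the next on its far side, *Nup54*, had -0.18.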
